A study of Mus musculus with 44 samples.

Results

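The comparison described here set RNA pulled down on tagged microglial ribosomes from a synaptosome fraction against total RNA of that fraction, in 8 immunoprecipitate and 8 input libraries of tamoxifen-treated mice, 16 of the 44 libraries of the series. Libraries were chosen by their titles and treatment labels alone: PeMP_TRAP (replicates D to F) and SN_TRAP (G to K), which was read as the same fraction, against SN_input (D to K). All mice carried CX3CR1-CreERT2 (+/-) and RPL10a-GFP flox (+/-), also the controls, and the tissue was dorsal cortex with hippocampus, harvested at p28-29. Tamoxifen at 100 mg/kg in sunflower oil and ethanol was injected at p15, p17 and p19. Control mice had vehicle per the labels of the libraries, while the series design text describes them as untreated. Their 3 immunoprecipitates (A to C) served as background of the pull-down, and 16 libraries of whole homogenate of tamoxifen mice as a second reference. Cre in this model is driven by the Cx3cr1 promoter, which is active in microglia and also in other macrophages. Nothing in the labels says that one letter is one animal or that libraries came from separate animals, so p-values measure the spread between these libraries, which may be technical.

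Microglia are the resident macrophages of brain tissue, and their thin processes touch synapses. A ribosome tagged with GFP in chosen cells can be captured with its messenger RNA (translating ribosome affinity purification, TRAP). A synaptosome preparation holds pinched-off nerve terminals with attached glial fragments, so that microglial ribosomes recovered from it include those of processes. Genes known for homeostatic microglia encode surface receptors that sense the tissue (Cx3cr1, P2ry12, Trem2), complement C1q, and lysosomal enzymes that degrade engulfed material. In bulk RNA, fewer cells of a type and less RNA per cell cannot be told apart.

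The 2 sets of libraries differed in depth and in complexity. Immunoprecipitates D to F held 746616 to 12602839 assigned reads and 11694 to 13096 detected genes, whereas G to K held 20442643 to 35584637 reads and only 5372 to 7369 genes. The molecule equivalents of a library were estimated from how many genes it detected, as the count of transcripts sampled at random from the averaged profile of the remaining libraries that would reach that number. That profile averages every fraction of the series, so the estimate depends on a library's composition as well as on how many molecules it held. The first set's immunoprecipitates held 134566 to 233364 molecule equivalents and the second set's 16305 to 31248, with 1134 to 1664 reads behind each. Inputs held 73338 to 1111450 molecule equivalents in D to F and 523930 to 1193730 in G to K. The first-set inputs also varied in mitochondrial RNA, from 15.3% to 66.0% of counts, and input D detected 10023 genes against 14955 or more in every input of the second set. Pairs of immunoprecipitates within a set correlated across genes at r of 0.38 to 0.539 (first) and 0.348 to 0.388 (second), and second-set inputs at 0.91 to 0.945 (6570 genes, which are not independent replicates). Levels below are scaled CPM, the counts of a gene relative to the library total, divided by the TMM factor of the library. Because a gene with few molecules is absent by chance from a G to K immunoprecipitate, the lower calls of the brain cell type lists are given beside the same test run on counts divided by the reads per molecule equivalent, for the members that could be tested.

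**Figure D1:**
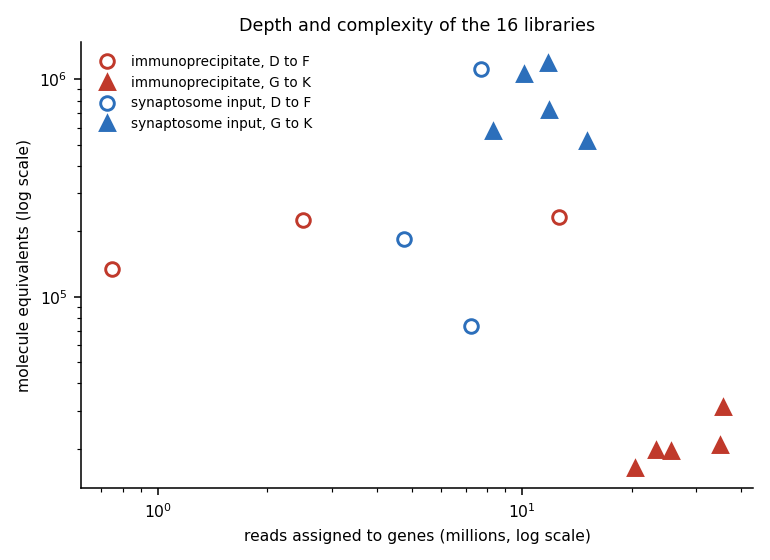
Reads assigned to genes (x, log scale) against molecule equivalents (y, log scale) for the 16 libraries, with open circles for the first set and filled triangles for the second, red for immunoprecipitates and blue for inputs. The 5 immunoprecipitates G to K had the most reads and the fewest molecule equivalents, 16305 to 31248.

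Genes of microglia were higher on the captured ribosomes, and genes of neurons, astrocytes and oligodendrocytes were lower. Across both sets, 504 of 12596 genes were higher in the immunoprecipitate than in the synaptosome input (percent of genes tested called, 4) and 1943 were lower (15.4), by edgeR's quasi-likelihood test with set as a term and Benjamini-Hochberg adjustment at 0.05. The median log2 fold change of all tested genes was -0.57. Counted in molecule equivalents, 3426 genes could be tested, 501 were higher (14.6) and 961 lower (28.1). Of the 504 higher genes, 410 were testable in molecule equivalents and 372 were called higher there, with 0 called lower. The lower calls on read counts rested largely on absence: 1728 of the 1943 had no second-set immunoprecipitate above 3 counts, and 1653 had a mean second-set input below 23.8 CPM, the level of 3 molecule equivalents over the pooled immunoprecipitates of that set. The higher calls were 290 with RLE factors and 238 with a minimum count of 50. Leaving out immunoprecipitate J lowered them to 325, and leaving out input D raised the lower calls to 3100. In molecule equivalents 131 of the 1943 could be tested, and 128 were lower. On simulated libraries of the same depth and molecule equivalents, read counts gave false lower calls, in the second set nearly as many as the lower calls made on the data and in both sets together fewer than those made. The lower counts on reads are therefore not, gene for gene, counts of genes shown to change.

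Read alone, the first set gave 0 genes past the threshold among 8968 (edgeR, 0% in each direction), although 1354 had an unadjusted p under 0.05 (15.1%) and DESeq2 called 496 higher and 396 lower. In molecule equivalents the same 6 libraries gave 104 genes higher and 57 lower of 2111 (4.93% and 2.7%). Leaving out immunoprecipitate F raised the first-set count on reads to 192 higher and 1 lower, and leaving out immunoprecipitate E gave 109 and 13. The second set alone gave 358 higher and 2616 lower of 11810 (3.03% and 22.2%), and 318 and 1244 of 3570 in molecule equivalents (8.91% and 34.8%). Without immunoprecipitate G the second set gave 4155 lower. The 2 sets share no library. Of the 358 genes higher in the second set, 281 had a first-set value, and 275 of these were positive there (97.9%, against 53.7% of all 8625 genes tested in both). An unadjusted p under 0.05 in the positive direction was reached in the first set by 153 of them (54.4%, against 8.96% of all genes), and in the negative direction by 0. Genes with inputs near 0 pass the first-set count filter through their immunoprecipitates only, so their positive sign is partly fixed by the filter. The same holds in molecule equivalents, and these shares are a description. For genes lower in the second set the first set gave less: of 1283 with a value, 160 had an unadjusted p under 0.05 in the negative direction (12.5%, against 6.19% of all). In molecule equivalents, 63 of the 104 first-set higher genes could be tested in the second set, 60 were called higher there and 0 lower. The corresponding numbers for the 57 lower genes were 51 tested, 47 lower and 0 higher.

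Across genes, the log2 fold changes of the sets correlated at r = 0.336 (rho = 0.436, 8625 genes) on reads and at r = 0.675 (rho = 0.777, 1812 genes) in molecule equivalents, values given as a description because genes share libraries and depth. The plot of the fold changes of the 2 sets shows the microglial lists at the upper right, the ribosomal and translation genes closer to the middle, and the neuronal and macroglial lists at the lower left.

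**Figure D2:**
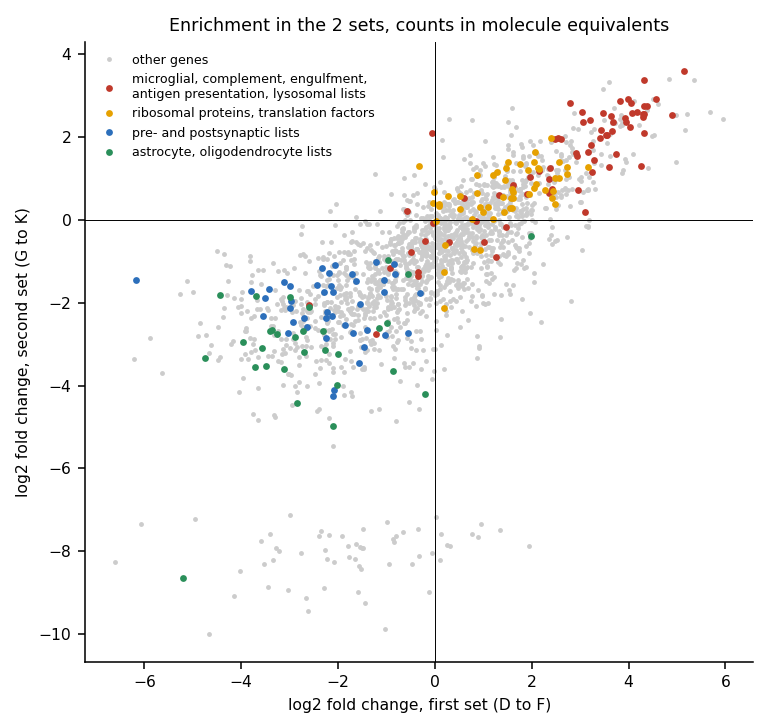
Log2 fold change of immunoprecipitate over input in the first set (x) and the second set (y), both in molecule equivalents, for the 1812 genes with a value in each. Points are genes, coloured by list; the cloud near a second-set value of -8 holds genes nearly without reads in the second-set immunoprecipitates, whose fitted fold is no measured size.

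In all tested genes, every immunoprecipitate exceeded every input for 977 genes in the first set (7.76%), 358 in the second (2.84%) and 158 in both (1.25%), and lay below every input for 1611 (12.8%), 4357 (34.6%) and 858 (6.81%). The immunoprecipitate was higher in all 8 letters for 271 genes (2.15%) and lower in all 8 for 1488 (11.8%). Of the 504 higher genes 140 lay apart in both sets and 207 were higher in all 8 letters. The difference between the enrichments of the 2 sets passed for 4 genes in the positive direction (0.0283%) and 1579 in the negative (11.2%) of 14151. In molecule equivalents 0 genes passed (edgeR, 731 of 4719 at an unadjusted p under 0.05), and the same was true of limma voom on reads.

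The anchor genes of the cell type were higher on the ribosomes. Cx3cr1, the fractalkine receptor whose promoter drives Cre, stood at 402, 1148 and 1389 CPM in immunoprecipitates D to F against 19.5, 75.6 and 104 in their inputs. In G to K it stood at 186, 452, 99.5, 374 and 555 CPM against 82.0, 84.8, 84.96, 85.9 and 66.5. Every immunoprecipitate exceeded every input of its set, and the log2 fold change was 3.16 ± 0.53 (SE; adjusted p = 0.0013, edgeR). Tmem119, a microglial membrane protein, rose by 3.88 ± 0.60 (adjusted p = 0.000436), from 58.7 to 87.2 CPM in first-set inputs to 602, 1024 and 4280 CPM, and from 59.9 to 104 CPM in second-set inputs to 193 to 870 CPM. P2ry12, the ADP receptor that guides process extension, was higher by 2.32 ± 0.61 (adjusted p = 0.00901). Its first-set groups lay apart (369 to 1063 against 65.3 to 116 CPM), but in the second set immunoprecipitate H was at 12.5 CPM, below all 5 inputs, and that set alone gave 1.31 with an adjusted p of 0.237. Rpl10a, the gene whose protein carries the tag, was at 270 to 428 CPM in immunoprecipitates G to K against 99.7 to 119 CPM in the inputs. Its 6 first-set libraries held 0 to 5.91 CPM, a level at which the sets cannot be compared. Several genes with near-identical copies (Rps27, Rps6, Rpl9, Rpl27) were likewise near 0 in the first set only, and their values are uncertain.

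**Figure D3:**
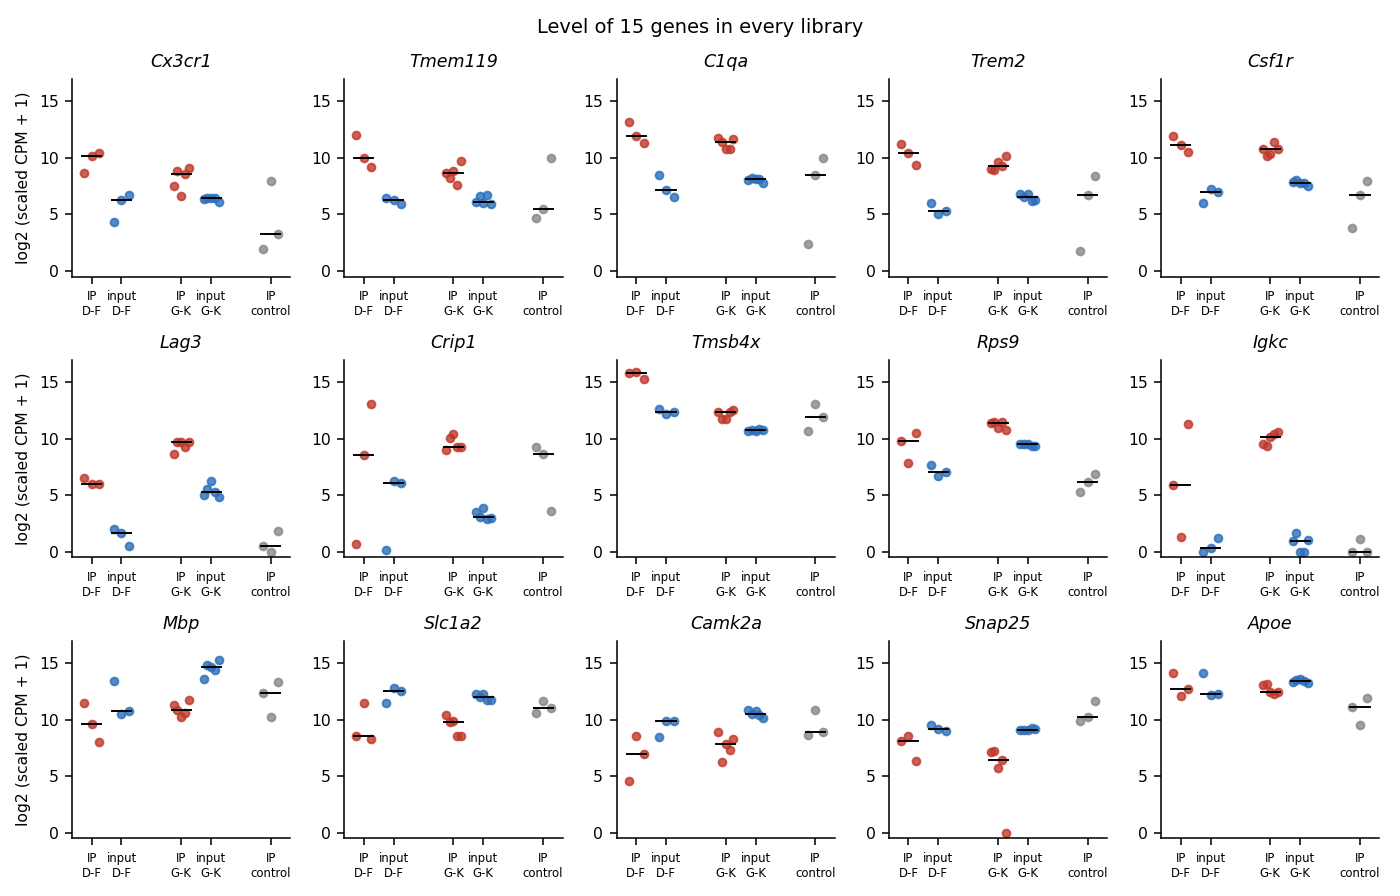
Level of 15 genes as log2 (scaled CPM + 1) in every library: immunoprecipitate (IP, red) and synaptosome input (blue) of the first (D-F) and second (G-K) set, and control immunoprecipitates A to C (grey); bars are medians. Medians of the microglial genes sit higher in red than in blue in both sets, those of Mbp, Slc1a2 and Camk2a lower, and Igkc is near 0 except in 7 of the 8 immunoprecipitates of tamoxifen mice.

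Among genes past the threshold with a mean log2 CPM of at least 4 and the same sign in all 8 letters, 191 were higher, and 13 of the 14 with the largest fold changes are named here. Igkc, the immunoglobulin kappa constant region (chr6:70726435-70726966), led with 10.92 ± 1.38 and is described further on with its family. Crip1, a LIM-domain protein (chr12:113146316-113153879), followed with 6.72 ± 1.09 (adjusted p = 0.000769). In G to K it stood at 521, 1079, 1387, 611 and 623 CPM against 6.44 to 13.7 CPM in the inputs. The first set was uneven for Crip1, with 0.615, 372 and 8477 CPM in D, E and F against 0.128, 74.9 and 67.5 CPM, and 2 of the 3 control immunoprecipitates held 406 and 637 CPM.

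Lag3, an inhibitory receptor that binds MHC class II (chr6:124904361-124911705), held 91.8, 61.6 and 63.8 CPM against 3.07, 2.19 and 0.438 in the first set. It held 411, 826, 820, 631 and 822 CPM in G to K against 27.2 to 76.9 CPM, with no overlap in either set, and rose by 4.90 ± 0.60 (adjusted p = 2.44e-05). Slamf9, a SLAM-family surface receptor (chr1:172475358-172478575), rose by 6.43 ± 1.35, with 195, 41.2 and 95.7 CPM in D to F against 0 to 0.729 CPM in their inputs. Havcr2, which encodes the receptor TIM-3 (chr11:46454935-46481255), rose by 4.82 ± 0.96, and the adaptor Grap (chr11:61653265-61672784) by 4.61 ± 0.84. Rps6ka1, the kinase RSK1 (chr4:133847290-133887797), rose by 4.76 ± 0.94.

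Slc2a5, a fructose transporter typical of microglia (chr4:150119283-150144169), rose by 5.15 ± 1.08, and Ucp2, an uncoupling protein of the inner mitochondrial membrane (chr7:100493337-100502020), by 4.97 ± 0.66. Sp110 (chr1:85576899-85598817), a nuclear body protein, rose by 5.73 ± 1.36, with 77.2, 8.74 and 8.27 CPM in D to F against 0 to 0.486 CPM in their inputs. Cebpa, a transcription factor of myeloid cells (chr7:35119293-35121928), rose by 4.58 ± 1.23, from 0 to 3.07 CPM to 21.3 to 50.4 CPM in the first set and from 1.27 to 7.33 CPM to 19.8 to 59.7 CPM in the second. Those Cebpa levels lie below 3 molecule equivalents of a single second-set library (88.0 to 138 CPM) and the gene was not testable in molecule equivalents, whereas the other 13 of the 14 were called there as well. Cmtm7 (chr9:114756836-114781856) rose by 5.86 ± 1.12 and Tent5c (chr3:100451628-100489324), a cytoplasmic poly(A) polymerase, by 5.33 ± 1.36. The first set was uneven for Tent5c as well, with 2.66, 10.7 and 340 CPM in D, E and F against 0 to 1.945 CPM. Control immunoprecipitate B held 59.2 CPM of it. In the second set Slamf9, Grap, Slc2a5 and Tent5c overlapped their inputs, in each case through immunoprecipitate G. No gene passed the threshold on reads in each set alone, since the first set had none.

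Promoter sequence was examined for the letters GAGGAAGT, a core of the site of PU.1, the ETS factor that myeloid cells depend on, on both strands of the 250 bases upstream of each RefSeq start (GRCm38.p6). The letters occurred in 2.44% of all 27018 such windows and in 2.25% of the 9521 windows of tested genes. They occurred in 16 of 369 windows of higher genes (4.34%), in 24 of 1448 of lower genes (1.66%) and in 2 of the 10 windows found for the 14 genes above. Among tested members of the lists they occurred in 0 of 21 windows of homeostatic microglial genes, 0 of 34 of actin and motility genes, 0 of 15 of antigen presentation genes, 1 of 30 of lysosomal genes, 3 of 26 of engulfment genes and 1 of 9 of complement genes. Granulocyte genes had them in 2 of 8 windows, chemokine and cytokine genes in 2 of 18 and ribosomal proteins in 3 of 60, and no other list had more than 1 match. The stretches around the match are shown for those 2, Slamf9 and Havcr2, and for 2 called members of the engulfment and complement lists, Vav1 and C1qc, with the match in capitals (ACTTCCTC on the reverse strand), each 5′ to 3′ on the gene's strand and ending at or before the start. In Slamf9 and Havcr2 the match ends 1 base before the start, in Vav1 4 bases and in C1qc 188 bases before it. A match is a description of the letters and not a binding site.
Slamf9, chr1:172475292-172475359 (+): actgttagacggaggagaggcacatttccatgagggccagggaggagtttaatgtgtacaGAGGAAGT
Havcr2, chr11:46454863-46454930 (+): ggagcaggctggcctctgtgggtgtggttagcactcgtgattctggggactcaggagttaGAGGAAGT
Vav1, chr17:57279029-57279099 (+): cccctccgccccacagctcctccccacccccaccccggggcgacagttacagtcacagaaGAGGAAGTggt
C1qc, chr4:136893042-136893164 (-): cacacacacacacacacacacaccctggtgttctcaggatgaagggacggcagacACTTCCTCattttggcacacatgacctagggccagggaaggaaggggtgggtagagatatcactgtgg

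Homeostatic microglial genes were higher as a group. Of 31 tested, 23 rose and 0 fell, with a median log2 fold change of 3.60 against -0.57 over all genes. The medians were 4.51 in the first set (29 of 29 members positive) and 2.71 in the second (27 of 29 positive), against 0.26 and -0.91 for all genes. In molecule equivalents 24 of 25 testable members were higher and 0 lower, with 17 of 24 called higher in the first set alone and 18 of 21 in the second. Csf1r, the receptor for the survival factors CSF1 and IL-34, rose by 4.12 ± 0.42, and Aif1, which encodes the microglial stain IBA1, by 3.99 ± 0.30. Trem2, a lipid-sensing receptor, held 2362, 1421 and 682 CPM in D to F against 62.0, 32.3 and 38.1 CPM, and 534, 478, 787, 614 and 1138 CPM in G to K against 72.2 to 114 CPM. Its groups lay apart in both sets and it rose by 4.22 ± 0.53 (adjusted p = 3.32e-05). Cst3, a secreted cathepsin inhibitor (2.90 ± 0.34), and Sparc, a matrix protein (2.52 ± 0.31), rose by less than the median of the list. All members summed to 60835 to 184480 CPM in first-set immunoprecipitates and 8753 to 20146 CPM in their inputs, and to 41515 to 70352 against 10577 to 12330 CPM in the second set, without overlap in either.

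The C1q chains of complement were higher. C1qa, one of the chains of the protein that opens the classical pathway, held 9143, 3971 and 2530 CPM in D to F against 359, 139 and 93.3 CPM, and 3467, 2805, 1798, 1806 and 3188 CPM in G to K against 226 to 304 CPM. All immunoprecipitates lay far above all inputs, and it rose by 4.30 ± 0.46 (adjusted p = 5.48e-06). C1qb rose by 4.08 ± 0.48 and C1qc by 3.98 ± 0.49. The subunits of complement receptor 3, Itgam (2.94 ± 0.63) and Itgb2 (4.34 ± 0.97), rose as well, with overlap in the second set for Itgam. Of 15 complement genes tested, 6 rose, 1 was called lower (Serping1, the C1 inhibitor, at 0 CPM in all immunoprecipitates and 7.41 CPM on average in second-set inputs) and 8 did not pass. That input level is below the 23.8 CPM of 3 molecule equivalents over the pooled immunoprecipitates, so no fall is measured in the second set. First-set inputs held 0, 11.4 and 40.3 CPM of Serping1. In molecule equivalents 6 of 6 testable members were higher, and Serping1 was not testable.

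Receptors and signalling partners of engulfment included 14 higher and 1 lower member of 35 tested, with a median of 2.56. Adaptors of immune receptors rose, with Tyrobp at 3.95 ± 0.34 and Fcer1g at 3.65 ± 0.39, and so did the Fc receptors Fcgr1 (4.61 ± 1.37) and Fcgr3 (3.25 ± 0.58). Fcgr1 was at 0 CPM in immunoprecipitate H. Among intracellular members, the kinase Lyn rose by 4.11 ± 0.97, the exchange factor Vav1 by 4.44 ± 1.03 and the GTPase Rac2 by 3.51 ± 0.71. Itgb5, an integrin that binds apoptotic material through bridging proteins, rose by 4.12 ± 0.55, and the scavenger receptor Lrp1 by 1.45 ± 0.41. Megf10, an engulfment receptor known from astrocytes, was the lower member, with 0 CPM in every immunoprecipitate. Its second-set inputs held 4.23 to 12.8 CPM, below the 23.8 CPM of 3 molecule equivalents over the pooled immunoprecipitates, so no fall is measured in that set. Vav1 overlapped in the second set and Lrp1 in the first. In molecule equivalents 15 of 22 members were higher and 3 lower, against 14.6% and 28.1% of all genes.

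Antigen presentation genes gave 10 higher and 1 lower of 19 tested (median 3.43), and 11 higher and 0 lower of 12 in molecule equivalents. The class I chain B2m rose by 3.03 ± 0.44, the class I heavy chains H2-K1 and H2-D1 by 3.69 ± 0.68 and 3.45 ± 0.64, and the immunoproteasome subunits Psmb9 and Psmb8 by 5.95 ± 1.47 and 3.46 ± 0.77. Psmb9 was at 0 CPM in immunoprecipitate G. Cd74, the class II invariant chain, rose (adjusted p = 0.00237), with 91.1, 33.0 and 72.1 CPM in D to F against 0, 1.95 and 0.438 CPM, and 204, 76.6, 392.5, 296 and 2.73 CPM in G to K against 3.69 to 15.3 CPM. Immunoprecipitate K overlapped the inputs for Cd74. H2-Aa, the class II alpha chain, was the lower member, with 0 CPM in all immunoprecipitates and at most a few CPM in the inputs. Those input levels are below 3 molecule equivalents over the pooled immunoprecipitates of either set, so no fall is measured. Class I heavy chain genes are similar to each other in sequence, and their counts are uncertain for that reason.

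Lysosomal genes split into a higher group and a larger group that did not pass. Of 38 tested, 14 rose and 1 fell, with a median of 1.54 (2.77 in the first set, 0.85 in the second), and in molecule equivalents 16 of 29 were higher and 1 lower. Ctsd, the aspartic protease cathepsin D, held 7527, 2582 and 1910 CPM in D to F against 352, 250 and 251 CPM, and 1804, 1571, 1527, 2453 and 1596 CPM in G to K against 266 to 378 CPM. It rose by 3.49 ± 0.41 (adjusted p = 1.78e-05). Ctss rose by 3.71 ± 0.41, Ctsz by 3.48 ± 0.52, the progranulin gene Grn by 3.46 ± 0.50, and Laptm5, a lysosomal membrane protein of blood cells, by 4.07 ± 0.49. Npc2, a cholesterol carrier, rose by 2.20 ± 0.67, although immunoprecipitate J held 5.19 CPM, below the 189 to 272 CPM of all second-set inputs. Psap, the saposin precursor that many brain cell types express, had 0.77 and did not pass. Mcoln1, a lysosomal ion channel, was the lower member. It was at 0 CPM in all second-set immunoprecipitates.

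Genes of the actin cytoskeleton, which moves microglial processes, gave 20 higher and 1 lower of 40 (median 2.45), and 20 higher and 0 lower of 29 in molecule equivalents. Tmsb4x, the actin-monomer binder thymosin beta 4, stood at 59710, 60280 and 41550 CPM in D to F against 6275, 4589 and 5330 CPM. In G to K it stood at 5191, 3542, 3370, 5471 and 6027 CPM against 1662 to 1932 CPM. Both sets lay apart, and the log2 fold change was 2.58 ± 0.29 (adjusted p = 6.88e-06). Actb rose by 2.12 ± 0.16, Pfn1 by 2.71 ± 0.52, Coro1a by 2.98 ± 0.60 and the Arp2/3 subunits Arpc1b and Arpc2 by 2.98 ± 0.64 and 2.12 ± 0.47. Wasf2, which activates Arp2/3 downstream of Rac, rose by 3.85 ± 0.70 and Fermt3, an integrin activator of blood cells, by 4.53 ± 1.08. Coro1a overlapped in the second set and Pfn1 in the first. Cfl1 rose by 1.48 ± 0.50 on reads but not in molecule equivalents (0.72, adjusted p = 0.11). Vim was the lower member and had no count in the second-set immunoprecipitates. Its inputs there held 9.10 to 20.2 CPM, below the 23.8 CPM of 3 molecule equivalents over the pooled immunoprecipitates, so no fall is measured in that set.

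Signalling molecules and transcription factors gave higher calls for a part of their members. Of 24 chemokine and cytokine genes 5 rose (Il21r, Il16, Tnfrsf1a, Ccl6 and Ccl12) and 1 was called lower (Spp1). Second-set inputs held 3.49 to 12.3 CPM of Spp1, below the 23.8 CPM of 3 molecule equivalents over the pooled immunoprecipitates, so no fall is measured in that set. In molecule equivalents 3 of 4 testable members were higher and 1 lower. In the second set 0 members lay apart higher and 5 lay apart lower, where 2.84% and 34.6% of all tested genes did so. Il21r was at 0 CPM in immunoprecipitates G, H and J. The medians were 4.12 in the first set and 2.29 in the second. Ccl6 held 398, 116 and 113 CPM in D to F against 35.5, 13.4 and 15.3 CPM, and 52.6, 102, 39.6, 11.96 and 243 CPM in G to K against 6.10 to 13.9 CPM, where J overlapped the inputs. It rose by 3.68 ± 0.81 (adjusted p = 0.00274). Of 25 transcription factor genes 8 rose and 0 fell (median 3.12), and 6 of 7 testable in molecule equivalents were higher. Spi1, which encodes PU.1, rose by 3.48 ± 0.93, Irf5 by 5.02 ± 1.53, Maf by 2.68 ± 0.57 and Sall1 by 3.13 ± 1.06. Maf lay apart in both sets. Spi1 in immunoprecipitates G (9.23 CPM) and J (2.54 CPM) lay below all second-set inputs (9.69 to 20.5 CPM), and Irf5 in G, I and J (1.22, 6.44 and 0 CPM) lay within or below the range of its inputs (2.50 to 18.1 CPM). Sall1 overlapped in both sets and Spi1 also in the first. Irf8 held 287, 306 and 72.1 CPM against 66.2, 12.2 and 9.64 CPM in the first set and 88.0, 26.2, 121, 57.4 and 340 CPM against 12.9 to 31.0 CPM in the second, where H overlapped the inputs. It rose by 3.12 ± 0.78 (adjusted p = 0.00597).

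Components of the translation machinery were higher as well when both sets were tested together. Of 81 cytosolic ribosomal protein genes 42 rose and 0 fell, with a median of 1.51 (1.74 in the first set, 1.11 in the second), and in molecule equivalents 29 of 77 were higher and 0 lower. The first set alone called 0 of 35 higher in molecule equivalents and the second set 48 of 79. Rps9 held 890, 228 and 1479 CPM in D to F against 199, 107 and 131 CPM, and 2744, 2881, 2000, 2854 and 1812 CPM in G to K against 662 to 755 CPM. It lay apart in both sets and rose by 2.51 ± 0.37 (adjusted p = 0.000223). Rpl8 rose by 2.69 ± 0.45, Rpl14 by 2.39 ± 0.41 and Rps14 by 1.13 ± 0.30, the last not called in molecule equivalents (0.51, adjusted p = 0.282). Rpl14 overlapped in the first set and Rps14 in the second. Of 33 translation factor genes 15 rose and 0 fell (median 1.45), and 11 of 30 in molecule equivalents (0 of 20 in the first set alone and 10 of 31 in the second). Eef1a1, the elongation factor that delivers aminoacyl-tRNA, rose by 2.29 ± 0.47. Its first-set groups overlapped (842, 77.2 and 586 against 234, 52.0 and 46.5 CPM) and its second-set groups lay apart (2404 to 4179 against 889 to 1213 CPM). Rack1 rose by 2.74 ± 0.39, Pabpc1, the poly(A)-binding protein, by 2.50 ± 0.47, Eef2 by 1.98 ± 0.35 and Eif4b by 2.78 ± 0.72, with overlap in the first set for Eef2 and in the second for Eif4b. Many ribosomal protein genes have processed copies in the genome, which makes their counts uncertain.

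**Figure D4:**
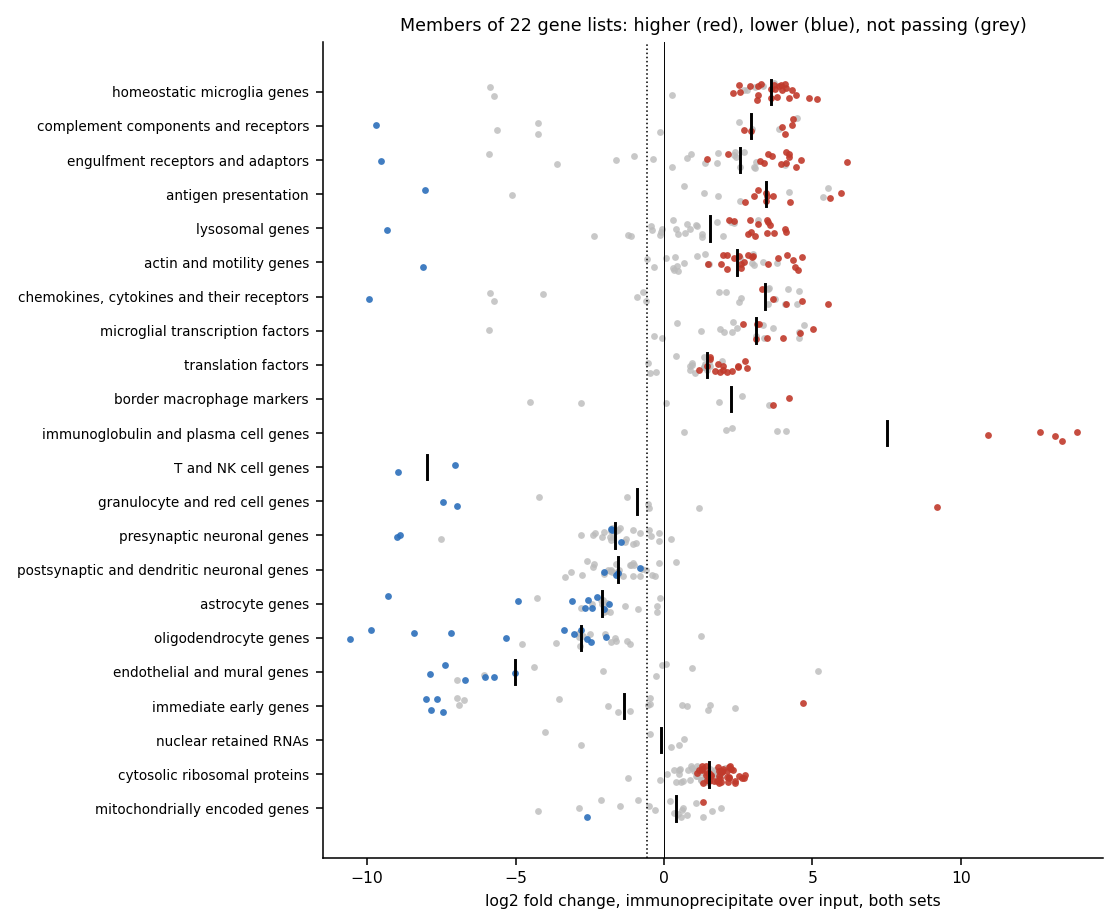
Log2 fold change of immunoprecipitate over synaptosome input in both sets (x) for each tested member of 22 gene lists (y); red and blue points passed the test, black bars are list medians and the dotted line is the median of all genes, -0.57. Microglial lists centre between 1.54 and 3.60, ribosomal proteins at 1.51, and neuronal, astrocyte and oligodendrocyte lists between -1.55 and -2.80; points beyond -6 or 12 are genes at or near 0 CPM in one fraction of the second set, whose fitted fold has no measured size.

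Some immunoglobulin transcripts were higher in the immunoprecipitates, in the first set mainly in F. Igkc held 60.5, 1.46 and 2591 CPM in D, E and F against 0, 0.243 and 1.31 CPM, and 746, 663, 1131, 1418 and 1529 CPM in G to K against 0 to 2.28 CPM. In the first set E lay only just above the highest input, and F lay far above D and E. Ighg1, a heavy chain constant region, held 0, 0.485 and 995 CPM in D, E and F and 380 to 1160 CPM in G to K, against 0 CPM in all inputs but one at 0.486 CPM. Of 10 tested genes of the list 5 rose (Igkc, Ighg1, Jchain, Iglc1 and Pou2af1, the joining chain and a B-cell coactivator among them) and 0 fell. Ltf, the lactoferrin gene of granulocytes, also rose (9.21 ± 1.90), at 0, 0 and 318 CPM in D to F and 23.1 to 312 CPM in G to K against at most 1.90 CPM, and control immunoprecipitate B held 247 CPM. S100a8 and Mpo, defining granulocyte genes, averaged 0 CPM in the immunoprecipitates of both sets and were called lower on reads, but their inputs averaged less than 3 molecule equivalents of the pooled immunoprecipitates. Also called lower on reads were the T-cell genes Cd4 (0.0683 and 0 CPM) and Trbc2 (1.20 and 0 CPM), the 2 of 16 T and NK cell genes that could be tested on reads. Neither T-cell gene was testable in molecule equivalents, and with both at their bound the second-set median was -0.16. The summed immunoglobulin and plasma cell list ranged from 1400 to 2968 CPM in second-set immunoprecipitates, from 109 to 158 CPM in their inputs and from 74.0 to 644 CPM in control immunoprecipitates. In the first set its sums overlapped, at 175 to 4739 CPM in immunoprecipitates and 86.8 to 290.2 CPM in inputs. Whether blood or plasma cells contributed was not tested.

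Of 8 tested markers of border-associated macrophages, which also express Cx3cr1, Stab1 (4.21 ± 0.73) and Lyz2 (3.68 ± 1.23, with overlap in the second set) rose, 0 fell and 6 did not pass. The median of the list was 2.24 against -0.57 over all genes, and in molecule equivalents 2 of 3 testable members were higher and 0 lower. Mrc1 had 2.62, and Apoe, a lipid carrier abundant in astrocytes as well, 0.06. Apoe held 18130, 4330 and 6655 CPM in D to F against 18330, 4744 and 4925 CPM, whereas in G to K it stood at 5117 to 9058 CPM, below the 10100 to 12530 CPM of the inputs. Cd163, F13a1 and Ms4a7 did not reach the filter on low counts. The summed list, of which Apoe was the largest part, overlapped between fractions in the first set (5075 to 19513 against 4801 to 18353 CPM). In the second set its sums lay below the inputs, as Apoe did (5332 to 9690 against 10165 to 12638 CPM). The part of border macrophages in the microglial calls was not tested.

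Of 25 oligodendrocyte genes tested, 11 fell and 0 rose (median -2.80), and in molecule equivalents 19 of 20 were lower. Mbp, which encodes myelin basic protein, held 2874, 815 and 260 CPM in D to F against 10890, 1486 and 1796 CPM, and 2603, 1885, 1203, 1572 and 3365 CPM in G to K against 12610 to 39020 CPM. The first-set groups overlapped through immunoprecipitate D and the second-set groups lay apart, and the log2 fold change was -2.45 ± 0.56 (adjusted p = 0.00314). Mobp (-1.95 ± 0.48), Mal (-3.04 ± 0.70) and Mog (-3.36 ± 1.18) fell as well. Mbp was not removed from the captured RNA, and 3 of 3 control immunoprecipitates held 1246 to 10620 CPM of it.

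Of 24 astrocyte genes 9 fell and 0 rose (median -2.08), and 19 of 22 were lower in molecule equivalents. Slc1a2, the main glutamate transporter of astrocytes, fell by 1.86 ± 0.38 on the log2 scale (adjusted p = 0.00237), with 378, 2937 and 319 CPM in D to F against 2932, 7031 and 5857 CPM and 371 to 1407 CPM in G to K against 3402 to 4894 CPM. Only immunoprecipitate E overlapped an input. Cpe (-2.03 ± 0.47), Aldoc (-2.44 ± 0.64), Sparcl1 (-2.66 ± 0.55) and Clu (-3.10 ± 0.97) fell too, while Glul did not pass (-0.15). Of 30 presynaptic genes 5 fell and 0 rose (median -1.66), a share on reads near the 15.4% of all tested genes called lower, and in molecule equivalents 20 of 25 were lower, against 28.1% of all genes. The 5 were the vesicle proteins Syp (-1.79 ± 0.51) and Syt1 (-1.77 ± 0.43), the glutamate transporter Slc17a7 (-1.43 ± 0.47), and Gad1 and Gad2, which make GABA and were at 0 CPM in all second-set immunoprecipitates. Of 32 postsynaptic and dendritic genes 4 fell and 0 rose (median -1.55), which is also near that background on reads, and 21 of 27 were lower in molecule equivalents. Camk2a, a kinase of the postsynaptic density, fell by 2.01 ± 0.46 on the log2 scale (adjusted p = 0.00334), with 22.7, 380 and 122 CPM against 349, 979 and 960 CPM in the first set and 77.6 to 473 against 1126 to 1882 CPM in the second. Kif5a (-1.63 ± 0.47), a kinesin of axons and dendrites, and Shank1 (-1.55 ± 0.53), a scaffold of the postsynaptic density, were also among them. Tested alone in molecule equivalents, the first set called few of these genes lower, where 2.7% of all genes were. The counts were 3 of 13 oligodendrocyte, 3 of 18 astrocyte, 1 of 23 presynaptic and 1 of 19 postsynaptic genes, the neuronal ones near that share. The second set called 19 of 20, 21 of 22, 22 of 25 and 24 of 28 lower, against 34.8% of all genes. Nrgn, a dendritic protein of neurons, had -0.82 and did not pass on reads.

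The 10 lowest genes among 200 that were lower in all 8 letters under the same level rule were Ly6h, Chga, Ermn, Dnajc27, Ndn, Adamts4, Kcnk3, Crym, Slc15a2 and Lhfpl3. All except Crym, with a mean of 0.006 CPM, were at 0 CPM in the 5 second-set immunoprecipitates, so their fitted folds are no sizes. Against a floor of 3 molecule equivalents over that set, Ly6h, a neuronal surface protein, was at least 7.62-fold lower, Chga, a granule protein of neurosecretory cells, at least 5.97-fold, and Ermn, a myelin protein, at least 3.68-fold. In the first set Slc15a2, a peptide transporter, held 0.102, 0.485 and 1.18 CPM in D to F against 175, 33.5 and 37.2 CPM, and Lhfpl3, a gene of oligodendrocyte precursors, held 0 to 0.485 CPM against 127, 10.7 and 20.6 CPM. Input D was the highest for both.

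Endothelial and mural genes, immediate early genes and nuclear RNAs gave fewer measurable changes. Of 15 vascular genes 6 fell and 0 rose (median -5.03), but with genes at the floor set to their bound the second-set median was -0.12. Vtn, a pericyte gene, fell from 118 to 2.66 CPM on average in the first set and from 65.6 to 0.791 CPM in the second (-5.73 ± 1.64). Cldn5, a tight junction gene called lower on reads, averaged 1.12 CPM in first-set and 3.73 CPM in second-set inputs, below the level of 3 molecule equivalents over the pooled immunoprecipitates (5.75 and 23.8 CPM), so that no fall is measured, and the summed list reached 1790 to 3641 CPM in control immunoprecipitates. Of 20 immediate early genes 4 fell and 1 rose, shares near those of all genes (15.4% and 4%). In molecule equivalents 0 of 3 were lower and 1 higher, and with the 6 at the floor set to their bound the second-set median was 0. The riser was Btg2, an antiproliferative gene, at 4.68 ± 1.14, with overlap in both sets. Of 6 nuclear RNAs none passed (edgeR), and Malat1 had 0.67. Of 20 mitochondrially encoded genes mt-Nd4 rose on reads (1.32 ± 0.44), with overlap in both sets, and was not called in molecule equivalents, where 0 of 13 were higher and 2 lower. mt-Rnr2 fell (-2.58 ± 0.55). mt-Rnr2, the large mitochondrial ribosomal RNA, held 4863 to 86560 CPM in first-set immunoprecipitates against 102700 to 1068000 CPM, and 1214 to 11050 against 21250 to 37740 CPM in the second set.

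Control mice gave the background of the pull-down. Their 3 immunoprecipitates held 60352 to 86710 molecule equivalents, and microglial genes were present there, C1qa at 4.28, 353 and 991 CPM, Trem2 at 2.34, 105 and 328 CPM and Tmem119 at 24.1, 43.2 and 1017 CPM. C1qa and Trem2 lay below all 3 first-set tamoxifen immunoprecipitates, whereas Tmem119 in control C overlapped them. Snap25 stood at 939 to 3202 CPM there, above the 79.2 to 380 CPM of first-set tamoxifen immunoprecipitates, and the summed homeostatic list at 4062 to 28061 CPM, below all 3 of them. The difference between the enrichments of tamoxifen and control mice, tested as an interaction on 12 first-set libraries, passed for 3 of 11717 genes, all higher with tamoxifen: Igkc (13.45), Susd3 (12.96) and Syngr2 (10.30; edgeR, 0.0256% called, 1882 genes at an unadjusted p under 0.05, DESeq2 438 higher and 327 lower). With limma voom and in molecule equivalents 0 genes passed, so none of the 3 calls held there. Control immunoprecipitates averaged 0.379 CPM of Igkc and Susd3 and 1.02 CPM of Syngr2, so the fitted differences are no sizes. The homeostatic list had a median difference of 3.52 with 29 of 29 members positive, against 0.06 and 5707 of 11251 for all genes. Single members did not pass, among them Cx3cr1 (3.64, adjusted p = 0.278) and C1qa (4.14, adjusted p = 0.168).

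The enrichment of many microglial genes was smaller in the synaptosome fraction than in whole homogenate, and no ribosomal protein gene passed the test of that difference. In the fit of all 32 tamoxifen libraries, the difference of the 2 enrichments passed for 61 higher (0.388%) and 1709 lower genes (10.9%) of 15710, and for 59 and 1381 of 10216 in molecule equivalents. With limma voom 4 and 191 passed, and with the letter as a replicate block 23 and 826. Of 31 homeostatic genes 21 were lower in this difference and 0 higher (median -2.84, against -0.62 for the genes tested here). P2ry12 had -4.58 (adjusted p = 4.28e-05), Cx3cr1 -3.65 (adjusted p = 0.0006) and C1qa -2.80 (adjusted p = 0.000295). Ribosomal protein genes had a median difference of 0.00 with 0 passing, and translation factors 0.55 with 1 higher, Eif3h (1.88, adjusted p = 0.026). The inputs differ too, since microglial RNA makes up a different share of each, and the part of input composition in these differences was not tested.

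Transcript length moved with the calls. The median summed exon length was 3121.5 bases for the 504 higher genes, 4603 for the 1943 lower genes and 4507.5 for all 12596. In molecule equivalents the medians were 3170, 4996 and 4210. Its part in the result was not tested.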

How the data were processed

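Per the labels' protocols, RNA was amplified with SMART-Seq v4 and libraries were made with NEBNext Ultra II. The authors deposited HTSeq counts, which are unnormalized integers for each Ensembl identifier. The submitters' processing notes name FastQC 0.11.7, Trimmomatic 0.38, Bowtie2 2.3.5, STAR 2.7.0d, HTSeq 0.9.1 and edgeR. Genome build, annotation, strand setting and the treatment of multiply mapped reads are not given in the sources used here. The deposited table of the first set was not used. Symbols and coordinates came from GENCODE M21 (GRCm38) for the 50714 identifiers shared by both sets. Genes left out held 0.0232% to 0.795% of the reads of the 22 synaptosome libraries, including the controls.

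Tests used edgeR 4.0.16 under R 4.3.3 (TMM scaling, filterByExpr with a minimum count of 10, quasi-likelihood test, Benjamini-Hochberg adjustment over all genes tested), on 16 libraries with set as a term, on each set, on their interaction, on 12 first-set libraries with controls and on 32 tamoxifen libraries. Molecule-equivalent counts were counts divided by a library's reads per molecule equivalent and rounded. Since amplified reads here carry no molecular identifiers, the floor of 3 covers counting error only. Per-library values are scaled CPM. Alternatives were RLE factors, total counts, DESeq2 1.42.0, limma 3.58.1 voom, other filters, leaving out libraries and the letter as a block. The fits were tested on simulated data.

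Named genes were those past the threshold with a mean log2 CPM of at least 4, no predicted-model symbol and one sign in every letter (the 14 largest, the 10 lowest), 4 each way by set difference, 4 anchors and list members. Some genes that the rule names are not reported here. Members and lists were chosen with earlier results of these data known.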

Additional observations from a re-analysis of the deposited data

Results flagged for a closer look

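In groups of 5 libraries, 3 of 58 sets of values held one library far from the other four, where chance gives about 1 in 20. Immunoprecipitate J had the highest Ighg1 level of the second set, 1160 CPM. Input K had the lowest Cx3cr1 level, 66.5 CPM, and the highest Ltf level, 1.90 CPM, which is near the floor.

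The enrichment differed between the sets for 4 genes that were higher and 1579 that were lower in the second set. Those higher were Rpl27 (4.81), Rps27 (5.38), Rpl9 (5.64) and Rps6 (5.70), log2 differences of genes that the first set counted near 0. The largest of the lower ones were Lama5 (-20.26), Fam89a (-19.81), Plscr1 (-19.74) and Plagl2 (-19.52), all at 0 CPM in the second-set immunoprecipitates, so these are no sizes. Tmsb4x, which was detected in all libraries, had -1.82 (adjusted p = 0.0301, edgeR). In molecule equivalents 0 genes differed between the sets (731 of 4719 at an unadjusted p under 0.05), and by limma voom 0 (3546 of 14151).

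The enrichment of tamoxifen mice exceeded that of controls for 3 genes, Igkc (13.45), Susd3 (12.96) and Syngr2 (10.30), and was below it for 0. None of the 3 passed with limma voom or in molecule equivalents. The enrichment in the synaptosome fraction exceeded that of whole homogenate for 61 genes and was below it for 1709. Among these were Cx3cr1 (-3.65), Tmem119 (-2.97), P2ry12 (-4.58), C1qa (-2.80), Trem2 (-2.62) and Eif3h (1.88).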

How the results depend on the processing

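In both sets together, the 504 higher and 1943 lower genes became 290 higher with RLE factors, 238 and 1242 with a minimum count of 50, 5078 lower with no filter, 3640 lower with DESeq2, 961 lower in molecule equivalents, and 966 and 4108 in the fit of all 32 tamoxifen libraries. Leaving out one library gave 325 to 574 higher and 1430 to 3100 lower. Of the 504, DESeq2 called 398 higher, limma voom 369 and RLE factors 290, with 0 called the other way. The first set's 0 and 0 became 118 and 7 with total counts, 496 and 396 with DESeq2, 414 and 143 with limma voom, 80 and 4 with no filter and 104 and 57 in molecule equivalents, and leaving out one library gave 0 to 192 and 0 to 13. The second set's 358 and 2616 became 549 higher with DESeq2, 6577 lower with limma voom, 4833 lower with no filter, 1560 lower with a minimum count of 50 and 1244 lower in molecule equivalents, and leaving out one library gave 262 to 435 and 2592 to 4155.

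The set difference (4 higher, 1579 lower) became 2 higher with total counts, 156 higher with DESeq2, 15 higher with no filter, and 0 and 0 with limma voom and in molecule equivalents, and leaving out one library gave 0 to 8 and 0 to 2420. Without any one of the 8 inputs it gave 0 and 0. The tamoxifen against control difference (3 and 0) became 438 and 327 with DESeq2, 23 and 11 with no filter, and 0 higher with limma voom (1238 of 11717 at an unadjusted p under 0.05) and in molecule equivalents (642 of 4436), with 0 to 22 and 0 to 6 leaving out one library. The difference from whole homogenate (61 and 1709) became 106 higher with DESeq2, 4 and 191 with limma voom, 256 higher with no filter and 22 higher with a minimum count of 50, with 30 to 77 and 981 to 2474 leaving out one letter. The cause of these shifts was not tested.

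Apoe, at 0.06, was below 0 with RLE factors and DESeq2 (-0.56), total counts (-0.41), limma voom (-0.23), no filter or no mitochondrial genes (-0.25), a minimum count of 50 (-0.58), molecule equivalents (-0.64), all 32 libraries (-0.19), and without input E or F (-0.15), immunoprecipitate D (-0.44) or J (-0.34), with a range of -0.44 to 0.36 leaving out one library. Malat1 had -0.34 with limma voom. RLE factors moved the median of all genes from -0.57 to -1.13, total counts to -0.83. RLE factors moved the homeostatic median to 2.94, the lysosomal one from 1.54 to 0.98, that of ribosomal proteins from 1.51 to 0.93 and that of translation factors from 1.45 to 0.87. Of 139 named genes that passed, RLE factors kept 126, limma voom 118 and DESeq2 131 of 135, and molecule equivalents 114 of 117, with 0 reversed.

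Deviations of same-letter libraries were nearly uncorrelated (r of -0.0319 to 0.0453, best match its own letter in 2 of 8). This cannot decide whether letters are pairs, because immunoprecipitates within a set correlated at only 0.38 to 0.539 (first) and 0.348 to 0.388 (second). The labels do not say that a letter is an animal, and the letters were not used to pair libraries in the main tests. With the letter as a replicate block, the calls were 249 higher and 2443 lower in both sets, 91 and 19 in the first, 134 and 3751 in the second, 9 and 7 for the set difference, 17 and 6 for tamoxifen against control and 23 and 826 against whole homogenate. In immunoprecipitates G to K, 3 molecule equivalents of one library came to 88.0 CPM or more, so single values below that level are imprecise.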
